A study of Mus musculus with 8 samples.

Results

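The mitosis genes described here are 32 mouse genes whose products drive or carry out cell division, from cyclins and CDK1 to kinesins, spindle checkpoint proteins and cytokinesis factors. They are a list of names put together with earlier results of these data known, so their direction and their shared pattern are described and not tested as a list. For the measured levels, 31 of the 32 had a probe set with a single gene symbol, among 19752 genes with a value in the series. The level of Ccnb1, the gene of cyclin B1, was not analysed here. Each of the 31 was measured by 1 such probe set.

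The tissue was whole tibialis anterior muscle of old male C57BL/6 mice (99 weeks in the sample labels, 22 months in the series text). The muscle was injured with a metal probe chilled in liquid nitrogen, held on it for 8 s, and was taken on day 8 after the injury. The treated group (4 arrays) received recombinant IL-33 (rIL-33), a cytokine released by damaged tissue whose receptor is found on innate lymphoid cells and regulatory T cells, as 2 µg into the peritoneal cavity 1 day before and again 1 day after injury. The control group (4 arrays) carries the treatment label PBS. All 8 muscles were injured, old and male, and no uninjured muscle was analysed here. The genetic background is given as C57BL/6 for replicates 1 and 2 of either group and as WT for replicates 3 and 4. Whether the arrays stand for different mice is not stated, so a p-value reflects only how these arrays spread, which may be technical. Muscle was homogenised whole, so a gene made in fewer cells and a gene with less RNA per cell cannot be told apart.

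Mitosis is driven by CDK1 bound to cyclins A and B. Polo-like and Aurora kinases then build the spindle, the spindle checkpoint holds the cell until each chromosome is attached at its kinetochores, and the anaphase-promoting complex, with its partner CDC20, ends mitosis by marking cyclin B and securin for destruction. The genes of this machinery are transcribed mainly late in the cell cycle, so in a tissue their RNA follows the cells in late S, G2 and M phase. In injured muscle, satellite cells and their myoblasts, fibro-adipogenic progenitors (mesenchymal cells), endothelial cells and leukocytes all divide during regeneration.

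Late cell cycle genes are known to share promoter elements. The CCAAT box is bound by the factor NF-Y, and the cell cycle genes homology region, often TTTGAA or TTCGAA, is bound by the MuvB complexes, which repress the genes in resting cells (DREAM) and activate them with MYBL2 and FOXM1 in dividing cells. RefSeq promoters (GRCm38.p6, 250 bases before to 50 after the gene's start, first listed start) were found for 28 of the 32 genes, and Ccna2, Aurkb, Tpx2 and Kif20a were not matched. On either strand, CCAAT was present in 22 of the 28 (78.6%), against 37.9% of the promoters of 27025 genes. TTTGAA was likewise present in 22 of the 28 (78.6%), against 18.1% of all. TTCGAA was present in 3 (10.7%, against 1.57% of all). CCAAT together with TTTGAA or TTCGAA stood in 20 of the 28 (71.4%) and in 7.7% of all promoters, and 15 of the 28 (53.6%) held at least 2 CCAAT matches, against 12.2% of all. A match describes these letters and does not show a bound site.

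Shown are the 200 bases before the start of 5 members, 5′ to 3′ on the gene's strand, with the matches to these motifs in capitals. A match on the other strand reads ATTGG for CCAAT and TTCAAA for TTTGAA. Ccnb2, Cdk1, Top2a and Bub1 are examples picked from the members whose RNA varied together over the arrays. Members not shown, such as Ect2 and Anln, did so at least as closely. Ndc80 followed the other members least but for Aurka, which is not shown. The choice of these 5 does not compare motifs with shared variation. The stretches lie at chr9:70421555-70421754 (Ccnb2), chr10:69352913-69353112 (Cdk1), chr11:99024190-99024389 (Top2a), chr2:127831860-127832059 (Bub1) and chr17:71526858-71527057 (Ndc80), all on the minus strand of GRCm38.p6.
Ccnb2: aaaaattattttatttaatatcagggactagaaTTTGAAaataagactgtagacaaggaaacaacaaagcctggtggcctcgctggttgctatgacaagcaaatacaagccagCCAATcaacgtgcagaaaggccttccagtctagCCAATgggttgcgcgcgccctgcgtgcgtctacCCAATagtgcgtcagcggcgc
Cdk1: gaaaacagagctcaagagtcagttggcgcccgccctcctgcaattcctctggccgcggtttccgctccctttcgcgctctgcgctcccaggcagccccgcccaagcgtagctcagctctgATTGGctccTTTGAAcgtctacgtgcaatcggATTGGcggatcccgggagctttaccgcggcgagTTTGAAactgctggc
Top2a: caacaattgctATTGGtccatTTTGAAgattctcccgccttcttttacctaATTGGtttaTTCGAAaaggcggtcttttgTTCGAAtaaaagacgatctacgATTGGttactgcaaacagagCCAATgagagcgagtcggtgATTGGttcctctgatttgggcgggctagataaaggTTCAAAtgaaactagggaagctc
Bub1: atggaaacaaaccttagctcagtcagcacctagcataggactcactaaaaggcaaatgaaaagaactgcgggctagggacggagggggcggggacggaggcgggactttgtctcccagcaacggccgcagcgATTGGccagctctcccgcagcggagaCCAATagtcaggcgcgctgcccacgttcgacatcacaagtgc
Ndc80: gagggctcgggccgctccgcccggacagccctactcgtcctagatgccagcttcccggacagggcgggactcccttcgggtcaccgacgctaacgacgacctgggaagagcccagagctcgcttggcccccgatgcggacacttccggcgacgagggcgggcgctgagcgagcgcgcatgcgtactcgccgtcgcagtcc
Positions count from the gene's start and are negative before it. In Ccnb2, CCAAT matches begin at -87, -54 and -21 and a TTTGAA at -167, and another TTTGAA begins at 5, just after the printed stretch. Cdk1 has CCAAT matches at -208 (outside the printed stretch), -80 and -48, with TTTGAA at -71 and -15. Top2a carries 6 CCAAT matches over the whole window, with the one at -227 outside the printed stretch. Bub1 has CCAAT matches at -68 and -42, with TTCGAA at 15. Ndc80 has no CCAAT match in the window, and its single TTTGAA begins at 30. Anln, whose RNA did follow the other members, has no CCAAT match either.

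The deposited values were RMA intensities of 24922 probe sets on each array, with median intensities from 222.6 to 232.2. Levels below are log2 intensities, and a difference is the mean of the 4 rIL-33 arrays minus the mean of the 4 PBS arrays. Genes dimmer than the 25th percentile of mean levels (log2 intensity 6.65) were not tested, which left 14814 genes, 29 mitosis genes among them. Ttk and Kif4 lay under that level. Over all genes tested, 1 passed an adjusted p of 0.05 in limma (0.00675%), Retnla, a gene of alternatively activated macrophages and no member of the list. The 8 genes fixed as markers of differentiated muscle fibre were all above the level for testing.

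Every mitosis gene with a value was lower on average in the rIL-33 muscles, 31 of 31, with a median difference of -0.34 and a range from -0.58 (Ccna2) to -0.03 (Ndc80). Over all genes tested, 52% were lower and the median difference was -0.01. With array weights the median difference over the 29 tested was -0.22 and 28 of them were lower. None of the 29 tested passed the threshold in limma (0% of all genes passed it as lower), the smallest adjusted p being 0.489. At an unadjusted limma p under 0.05, 19 of the 29 were lower, where 5.24% of all genes tested were. Several single arrays moved that count. Leaving out PBS replicate 2, PBS replicate 3 or rIL-33 replicate 2 gave 21, 15 and 25 (6.37%, 6.33% and 6.27% of all genes). The count was 5 without rIL-33 replicate 1 (2.48% of all genes), 5 without rIL-33 replicate 3 (2.81%), 5 without PBS replicate 1 (3.76%), 7 without PBS replicate 4 (2.83%) and 12 without rIL-33 replicate 4 (6.31%), and it was 4 with array weights (3.18%). It was 1 on the arrays labelled C57BL/6 alone (3.33%) and 21 on those labelled WT alone (4.49%).

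**Figure D1:**
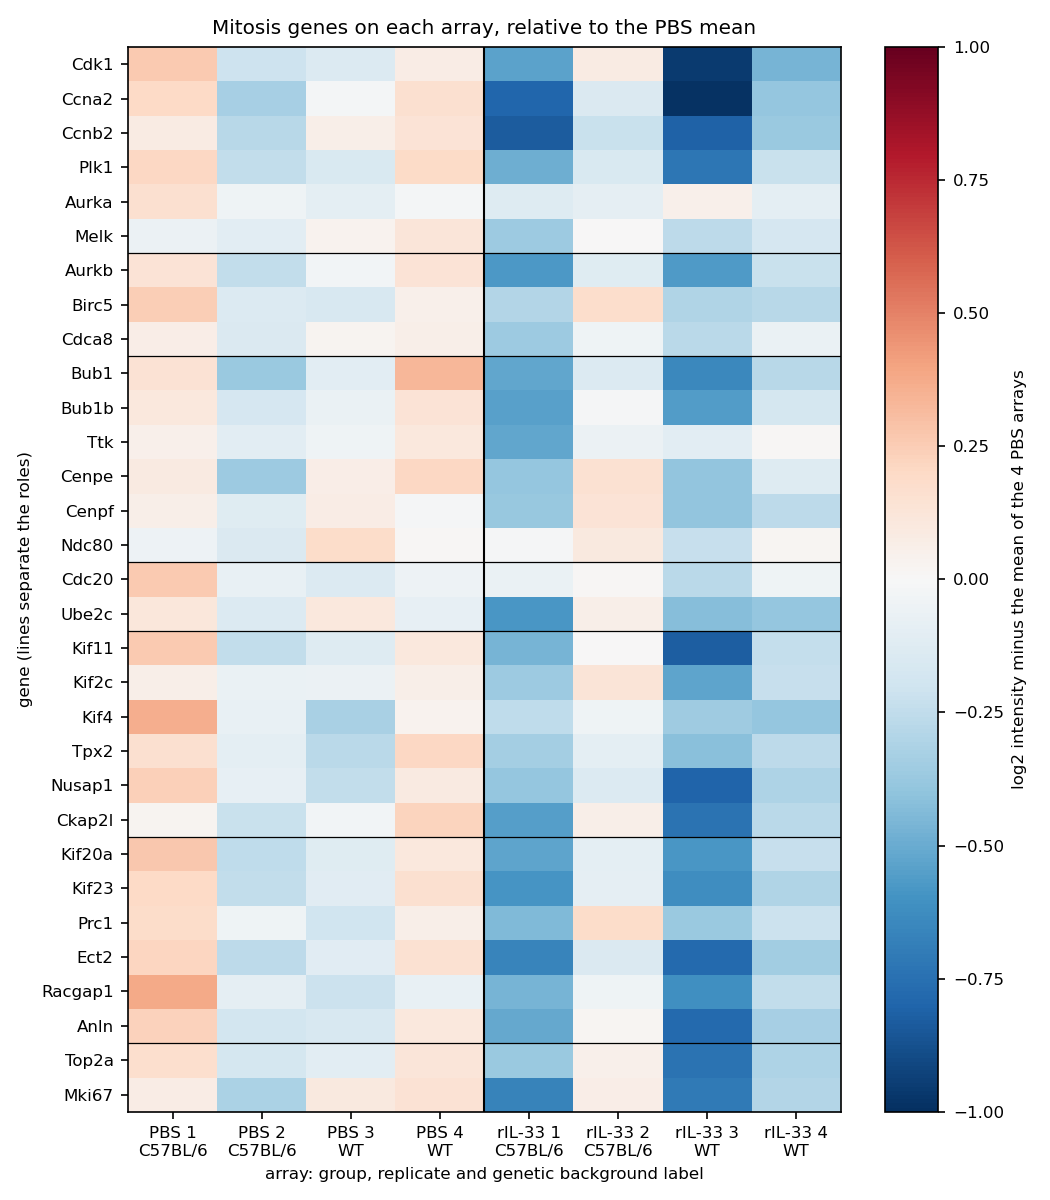
Each row is a mitosis gene and each column an array, and the colour is the log2 intensity minus the mean of the 4 PBS arrays. The columns of rIL-33 replicates 1 and 3 are blue in nearly all rows, with medians of -0.47 and -0.57, whereas that of rIL-33 replicate 2 is pale, with a median of -0.01.

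The rIL-33 arrays differed among themselves in these genes, and the PBS arrays did so to a smaller extent. Relative to the PBS mean of each gene, the median over the 31 genes was 0.16, -0.17, -0.11 and 0.11 on PBS replicates 1 to 4. The same median was -0.47, -0.01, -0.57 and -0.26 on rIL-33 replicates 1 to 4. So rIL-33 replicates 1, 3 and 4 lay below all PBS arrays, with replicate 4 the nearest to them, and rIL-33 replicate 2 lay inside the PBS range. Over all genes tested, the medians of single arrays lay between -0.05 and 0.03, which the normalization of the arrays to one distribution sets.

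The order of the arrays recurred from gene to gene. rIL-33 replicate 3 was the lowest of the 8 arrays in 22 of the 31 genes, where it was the lowest in 17.2% of all genes tested, rIL-33 replicate 1 in 8 (17.5% of all) and rIL-33 replicate 4 in 1 (2.63%). rIL-33 replicate 2 was the highest of the rIL-33 arrays in 29 of the 31 (20.3% of all). In 17 of the 31, 3 of the rIL-33 arrays lay below all PBS arrays, and in each of these 17 the remaining one was rIL-33 replicate 2. At least 3 rIL-33 arrays below all PBS arrays were found in 7.74% of all genes tested. No mitosis gene had all 4 rIL-33 arrays below all 4 PBS arrays, which 2.13% of all genes had. Without rIL-33 replicate 2, the groups did not overlap in 17 of the 31 (4.66% of all genes). Without PBS replicate 2, the PBS array with the lowest median (-0.17), they did not overlap in 7 (5.63%). Without PBS replicate 3 it was 1 gene (5.12%), and with any 1 of the other 5 arrays left out it was 0 (2.44% to 4.33% of all genes). The median difference over the 31 genes was -0.45 without rIL-33 replicate 2 and between -0.24 and -0.38 without any other single array.

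The spread within the treated group was the wider one. The SD of the 4 rIL-33 arrays exceeded that of the 4 PBS arrays in 25 of the 31 genes, with medians of 0.26 and 0.19. Over all genes tested it did so in 37.0%, with medians of 0.12 and 0.14.

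Cyclins, CDK1 and the entry kinases had the widest differences, with a median of -0.43 over 6 genes. Ccnb2, the gene of cyclin B2, stood at 10.41, 10.05, 10.38 and 10.47 on PBS replicates 1 to 4 and at 9.50, 10.10, 9.52 and 9.95 on rIL-33 replicates 1 to 4. All but rIL-33 replicate 2 lay below the lowest PBS array. The difference was -0.56 (SE 0.15, limma adjusted p = 0.489), 32.2% lower as a ratio of geometric means. Of all mitosis genes it had the smallest p, rank 97 of the 14814 genes. Ccna2 encodes cyclin A2, which serves CDK2 in S phase and CDK1 at entry into mitosis. Its levels were 9.83, 9.30, 9.61 and 9.79 with PBS and 8.84, 9.49, 8.64 and 9.25 with rIL-33, replicates 1 to 4 in each. Here too rIL-33 replicate 2 alone overlapped the PBS arrays, being above PBS replicate 2. The difference of -0.58 (SE 0.18, limma adjusted p = 0.489) was the widest of the 31.

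Cdk1 encodes the kinase that these cyclins activate. It was measured at 9.64, 9.17, 9.25 and 9.45 on PBS replicates 1 to 4 and at 8.85, 9.46, 8.43 and 8.91 on rIL-33 replicates 1 to 4. Its low arrays were rIL-33 replicates 1, 3 and 4, while rIL-33 replicate 2 was above all PBS arrays but replicate 1. The difference was -0.47 (SE 0.19, limma adjusted p = 0.496), or -0.30 without rIL-33 replicate 3. Polo-like kinase 1 (Plk1), which matures centrosomes and helps to switch CDK1 on, stood at 8.88, 8.42, 8.52 and 8.87 with PBS and at 8.18, 8.52, 7.95 and 8.44 with rIL-33, and differed by -0.40 (SE 0.15, limma adjusted p = 0.489). In Plk1, rIL-33 replicates 1 and 3 alone were below all PBS arrays.

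Aurka, the gene of the centrosomal kinase Aurora A, did not share the pattern. It stood at 8.16, 7.96, 7.90 and 7.99 on the PBS arrays and 7.88, 7.92, 8.05 and 7.91 on the rIL-33 arrays, where replicate 3, the lowest array in most of the other genes, was the highest of the treated ones. Its difference was -0.06 (SE 0.08, limma adjusted p = 0.84). It was -0.01 without PBS replicate 1 and, leaving out rIL-33 replicate 3 instead, -0.10. Melk, a kinase gene expressed in dividing cells, ranged from 7.32 to 7.55 with PBS and from 7.06 to 7.43 with rIL-33, differing by -0.20 (SE 0.09).

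**Figure D2:**
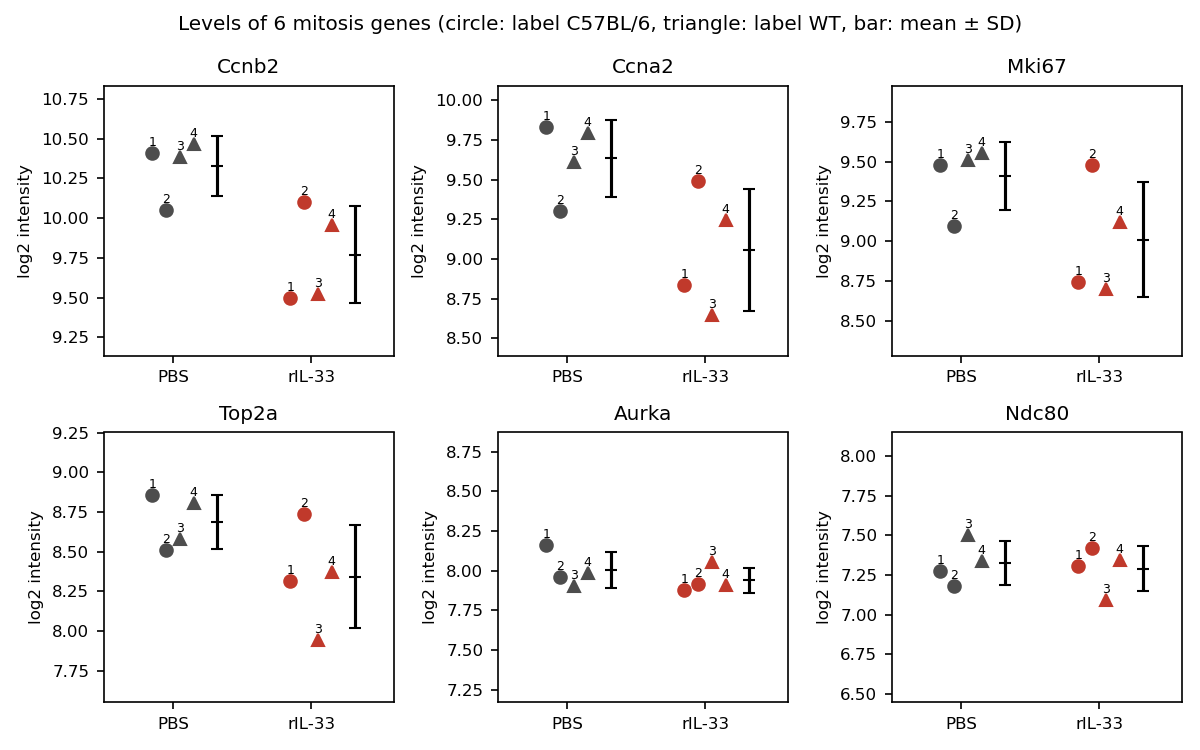
Log2 intensity of 6 mitosis genes on each array, with the replicate number beside each point; circles carry the label C57BL/6, triangles the label WT, and bars give the mean ± SD of the 4 arrays of a group. The y axes differ in their start but span the same width. In Ccnb2, Ccna2, Mki67 and Top2a rIL-33 replicates 1 and 3 lie lowest and rIL-33 replicate 2 among the PBS arrays, while the groups of Aurka and Ndc80 differ by -0.06 and -0.03.

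The chromosomal passenger complex corrects faulty attachments of chromosomes and later steers cytokinesis. Its kinase gene Aurkb (Aurora B) stood at 8.93, 8.54, 8.77 and 8.93 with PBS and 8.22, 8.67, 8.23 and 8.57 with rIL-33, replicates 1 to 4. rIL-33 replicates 1 and 3 were the low arrays, well under every PBS array, and the difference was -0.37 (SE 0.13, limma adjusted p = 0.489). Birc5 (survivin) and Cdca8 (borealin), which tether the kinase to centromeres, differed by -0.17 (SE 0.13) and -0.19 (SE 0.09). In Birc5, rIL-33 replicates 1, 3 and 4 lay together from 7.30 to 7.32 and replicate 2 at 7.78. Birc5 differed by -0.29 without that replicate and by -0.09 without PBS replicate 1.

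Kinetochore and spindle checkpoint genes were split. The checkpoint kinase gene Bub1 stood at 8.21, 7.70, 7.97 and 8.40 with PBS and 7.55, 7.94, 7.43 and 7.79 with rIL-33 and differed by -0.40 (SE 0.16, limma adjusted p = 0.489). PBS replicate 2 was low here and lay between the rIL-33 arrays. Bub1b, which encodes the checkpoint protein BubR1, stood at 8.06, 7.79, 7.89 and 8.10 with PBS and at 7.42, 7.95, 7.40 and 7.78 with rIL-33 and differed by -0.32 (SE 0.13, limma adjusted p = 0.496). The groups overlapped through rIL-33 replicate 2. The remaining members had narrower differences: -0.23 (SE 0.12) for the kinetochore protein gene Cenpf, -0.19 (SE 0.15) for the kinetochore motor Cenpe and -0.17 for the dim checkpoint kinase gene Ttk. Cenpf differed by -0.35 without rIL-33 replicate 2. The difference of Cenpe ranged from -0.31 without PBS replicate 2 to -0.12 without PBS replicate 4, and that of Ttk was -0.05 without rIL-33 replicate 1. Ndc80 encodes a subunit of the complex that binds microtubules at the outer kinetochore. It stood at 7.28, 7.18, 7.50 and 7.34 with PBS and 7.31, 7.42, 7.09 and 7.34 with rIL-33, and the ranges of the groups overlapped over most of their width. Its difference of -0.03 (SE 0.10, limma adjusted p = 0.946) turned to 0.03 without rIL-33 replicate 3 and also without PBS replicate 3, and was -0.08 without PBS replicate 2.

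The partners of the anaphase-promoting complex differed from each other. Ube2c, the ubiquitin-conjugating enzyme that works with the complex, stood at 9.15, 8.91, 9.14 and 8.96 with PBS and 8.46, 9.10, 8.62 and 8.66 with rIL-33. The rIL-33 arrays other than replicate 2 were all below the PBS arrays, and the difference was -0.33 (SE 0.13, limma adjusted p = 0.489). The activator gene Cdc20 stood at 8.13, 7.80, 7.73 and 7.82 with PBS and at 7.80, 7.88, 7.60 and 7.83 with rIL-33, where PBS replicate 1 was high, rIL-33 replicate 3 low and the other 6 arrays between 7.73 and 7.88. The Cdc20 difference was -0.09 (SE 0.10, limma adjusted p = 0.811), and -0.01 without PBS replicate 1.

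Spindle motor and spindle assembly genes had a median difference of -0.33 over 6 genes. Kif11 encodes the motor Eg5, which pushes the spindle poles apart. On PBS replicates 1 to 4 it stood at 8.87, 8.36, 8.47 and 8.71 and on rIL-33 replicates 1 to 4 at 8.14, 8.61, 7.78 and 8.36. rIL-33 replicate 3 was the lowest, and without it the difference of -0.38 (SE 0.17, limma adjusted p = 0.517) was -0.23. Nusap1, which bundles spindle microtubules, stood at 8.01, 7.69, 7.53 and 7.86 with PBS and at 7.39, 7.64, 6.97 and 7.46 with rIL-33, with rIL-33 replicate 2 alone overlapping the PBS arrays. It differed by -0.41 (SE 0.15, limma adjusted p = 0.489). Of the others, Ckap2l, a gene of a spindle protein, differed by -0.37 (SE 0.16) and Tpx2, which activates Aurora A at spindle microtubules, by -0.28 (SE 0.12). Kif2c encodes a microtubule-depolymerising kinesin and differed by -0.25 (SE 0.12; -0.37 without rIL-33 replicate 2 and -0.16 without rIL-33 replicate 3). Kif4, a chromosome-bound kinesin, was dim, from 6.29 to 6.98 with PBS and from 6.22 to 6.57 with rIL-33, and differed by -0.26 (-0.14 without PBS replicate 1).

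Genes of the central spindle and cytokinesis had a median difference of -0.38 over 6 genes. Ect2 encodes the exchange factor that activates RhoA at the division plane. It was measured at 8.63, 8.15, 8.30 and 8.57 on PBS replicates 1 to 4 and at 7.75, 8.27, 7.63 and 8.06 on rIL-33 replicates 1 to 4, with only rIL-33 replicate 2 above the lowest PBS array. The difference was -0.48 (SE 0.15, limma adjusted p = 0.489). Kif23, the kinesin of the centralspindlin complex, stood at 8.63, 8.18, 8.32 and 8.58 with PBS and at 7.83, 8.34, 7.80 and 8.13 with rIL-33 and differed by -0.40 (SE 0.14, limma adjusted p = 0.489). Its partner in that complex, Racgap1, had its highest value on PBS replicate 1 (8.61) and differed by -0.34 (SE 0.15), or by -0.22 without that array. Anln (anillin), the scaffold of the contractile ring, differed by -0.40 (SE 0.16), and Kif20a, a motor of the central spindle, by -0.36 (SE 0.14). Prc1, which bundles the antiparallel microtubules of the central spindle, differed by -0.21 (SE 0.14; -0.34 without rIL-33 replicate 2 and -0.14 without rIL-33 replicate 1).

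Both genes of chromosome structure were low on the same arrays. Mki67 encodes Ki-67, the coat protein of mitotic chromosomes that is stained to count dividing cells. It stood at 9.48, 9.09, 9.51 and 9.55 on PBS replicates 1 to 4 and at 8.74, 9.48, 8.70 and 9.12 on rIL-33 replicates 1 to 4. PBS replicate 2 stood apart from the other PBS arrays, and rIL-33 replicate 2 lay within the PBS range. The difference was -0.40 (SE 0.17, limma adjusted p = 0.511). Top2a, the topoisomerase that disentangles sister chromatids, stood at 8.86, 8.51, 8.58 and 8.81 with PBS and at 8.32, 8.74, 7.95 and 8.38 with rIL-33. Its difference of -0.34 (SE 0.15, limma adjusted p = 0.515) was -0.21 without rIL-33 replicate 3.

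The genetic background labels split each group in equal parts, so the comparison was also made within them, with 2 arrays against 2. Within the C57BL/6-labelled arrays 29 of the 31 genes were lower with rIL-33, by a median of -0.24, where 54.7% of all genes tested were lower. Cenpe (0.02) and Ndc80 (0.14) were the exceptions. Within the WT-labelled arrays 30 were lower, by a median of -0.40, where 49.5% of all genes were, and the exception was Aurka (0.04). In 28 genes the sign was negative within both labels, as in 33.6% of all genes tested. Over all genes tested the median difference was -0.0145 within C57BL/6 and 0.0025 within WT. The 2 rIL-33 arrays labelled C57BL/6 were unlike each other, with member medians of -0.47 (replicate 1) and -0.01 (replicate 2) from the PBS mean. The labels were furthest apart in 3 genes. Ckap2l differed by -0.15 within C57BL/6 and -0.60 within WT, Mki67 by -0.18 and -0.62, and Cdk1 by -0.25 and -0.68. The interaction of treatment and label was not past the threshold for any of the 29 in limma (smallest adjusted p = 0.999), and 0 of them had an unadjusted p under 0.05, the smallest being 0.0649 for Ndc80, where 3.19% of all genes had one. With the label as a block, 19 of the 29 were again lower at an unadjusted limma p under 0.05 (7.22% of all genes), and the smallest adjusted p was 0.265.

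**Figure D3:**
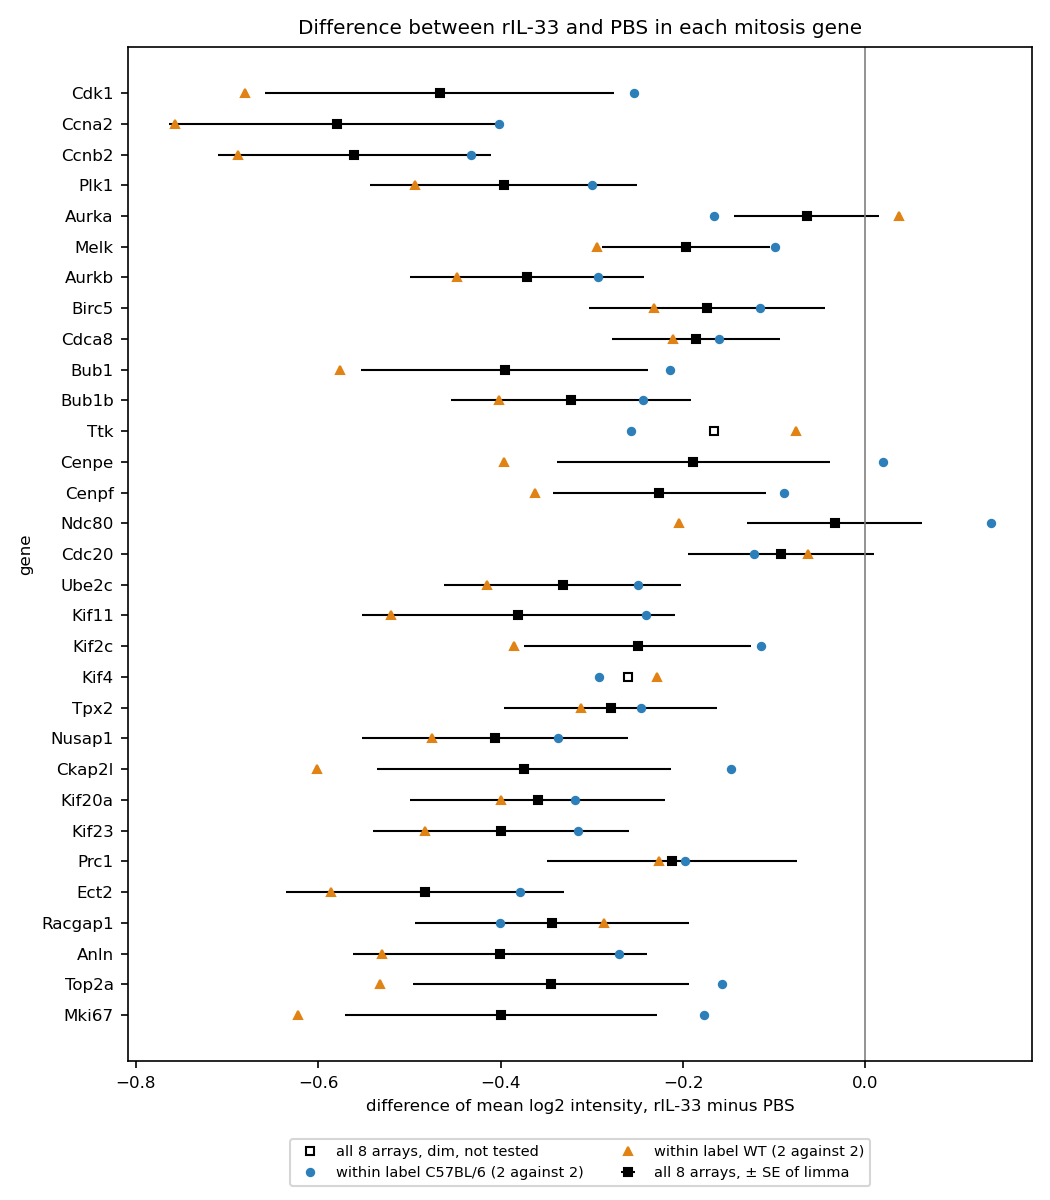
Difference of mean log2 intensity, rIL-33 minus PBS, for each of the 31 genes: black squares with the limma SE use all 8 arrays, open squares are the 2 dim genes, and blue circles and orange triangles are the differences within the labels C57BL/6 and WT. All black and open squares lie left of 0, from -0.58 for Ccna2 to -0.03 for Ndc80. The median is -0.24 for the circles and -0.40 for the triangles.

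The mitosis genes varied together over the arrays. Pearson's r of log2 intensity was computed for the 465 pairs of the 31 genes over the 8 arrays. These values are a description, since all pairs share the same arrays and their normalization. The median r was 0.852, with 61.7% of the pairs at 0.8 or above, against a median of 0.005 and 5.16% over all pairs of the 14814 genes tested. With each gene centred on its group means, which takes out the difference between rIL-33 and PBS, the median r was 0.784 (all gene pairs 0.015). With each gene centred on the means of group and label, it was 0.876 (all gene pairs 0.007). Within the rIL-33 arrays alone the median was 0.897 and within the PBS arrays alone 0.771, each over 4 arrays.

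The closest pair was Ect2 and Kif23 (r = 0.996), both genes of cytokinesis. Cdk1 and Top2a followed each other almost as closely (r = 0.994), although one acts at entry into mitosis and the other on the chromosomes. Ccna2 was the gene with the highest median r with the other 30 (0.933). Aurka had the lowest, 0.293, followed by Ndc80 (0.489) and Ttk (0.639), and Aurka and Ndc80 had an r of -0.50 with each other. Ttk is dim, which Aurka and Ndc80 are not. In their promoter windows, Aurka has CCAAT matches at -51 and -19 and a TTTGAA at 33, whereas Ndc80 has a single TTTGAA and no CCAAT match. Anln, Kif2c, Nusap1, Melk and Birc5 have no CCAAT match either, and their median r was 0.911, 0.874, 0.857, 0.801 and 0.8. A link between these motifs and r was not tested.

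**Figure D4:**
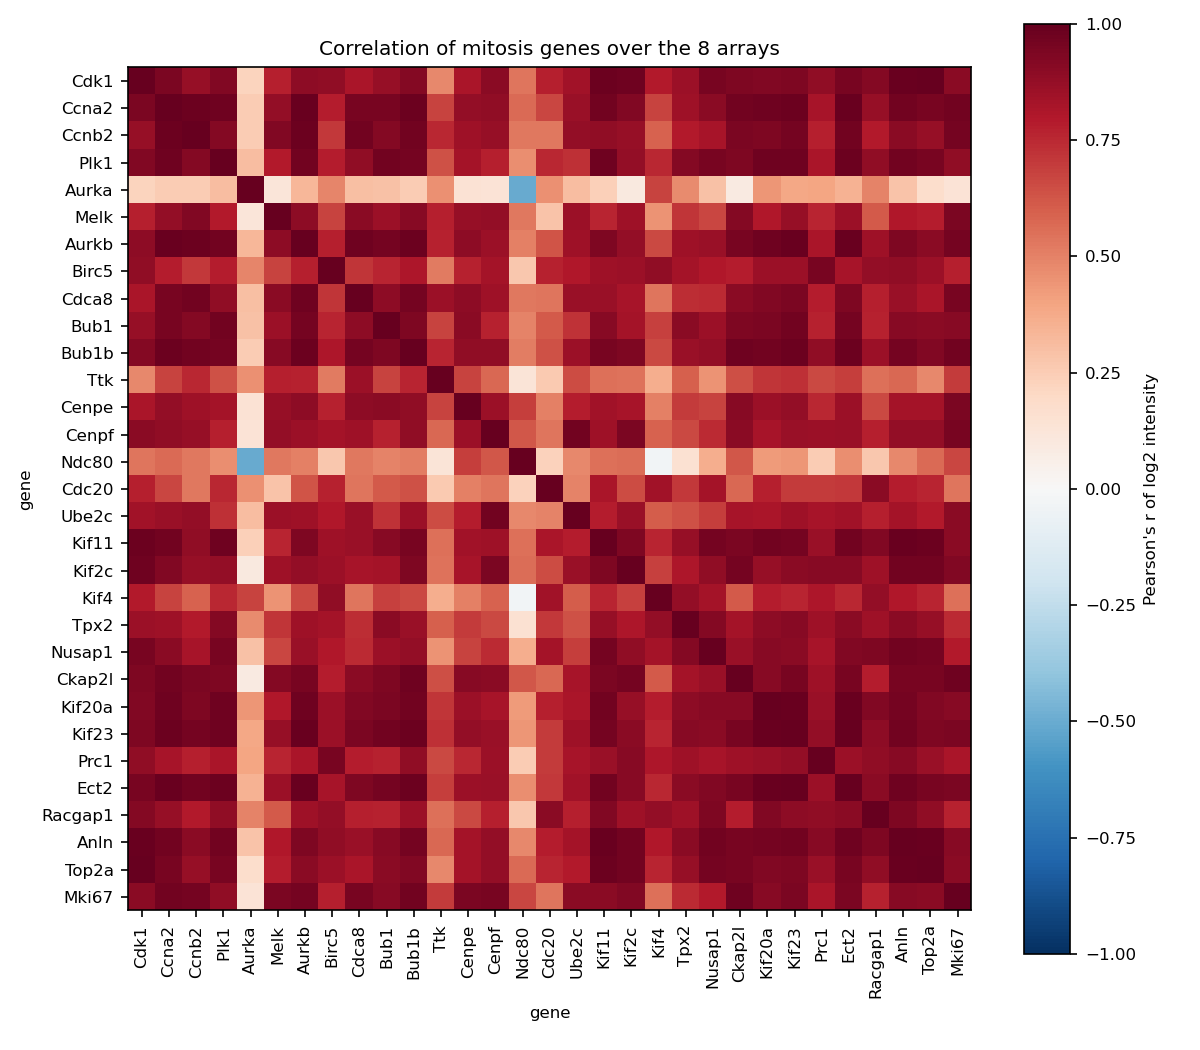
Pearson's r of log2 intensity over the 8 arrays for each pair of the 31 genes, ordered by role on both axes. Most cells are dark red, with a median r of 0.852, and the palest rows are those of Aurka and Ndc80, with medians of 0.293 and 0.489.

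Genes outside the list followed the same pattern over the arrays. Of 14785 tested genes outside the list, 441 (2.98%) had an r of at least 0.9 with the mean of the standardised mitosis genes over the 8 arrays. Another 145 had an r of -0.9 or below. The 10 with the highest r, from 0.982 to 0.988, held 1 gene of the other cell cycle lists, Cks2, which encodes a CDK-binding subunit (r = 0.985, difference -0.63, SE 0.20, limma adjusted p = 0.489). Stmn1 encodes stathmin, a microtubule-destabilising protein that is abundant in dividing cells (r = 0.983, difference -0.24, SE 0.12). The others were Zfp948, Ppia (cyclophilin A), Sec61a1 (the translocon of the endoplasmic reticulum), Pafah1b3, Lsp1 (a leukocyte actin-binding protein), Fads3, Tmem97 and Arhgap1. They were named by their likeness over all 8 arrays, group difference included, so lower levels with rIL-33 follow from that choice. Their differences lay between -0.38 and -0.20.

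Other genes of the cell cycle were listed by function. In 8 lists with 154 tested genes, 121 were lower with rIL-33 (52% of all genes tested), 25 of them at an unadjusted limma p under 0.05 (5.24% of all), and 0 passed the adjusted threshold. The 2 genes higher at that unadjusted p, named after their values were seen, were the cohesin subunit gene Stag2 (0.23, SE 0.09) and Rbl2 (0.21, SE 0.10), which encodes the p130 subunit of DREAM.

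Of further spindle and cytokinesis genes 20 of 22 were lower, with a median of -0.22. Cdca3 (-0.35, SE 0.12), Ckap2 (-0.35, SE 0.12) and Cep55, a gene of abscission (-0.32, SE 0.13), had the widest differences there. All rIL-33 arrays lay below all PBS arrays in Cdca3, as in 2.13% of all genes tested. This held also for E2f1, named below, and for some listed genes that are not named. Further kinetochore and checkpoint genes had a median of -0.08, with 17 of 23 lower. Cenpn (-0.38, SE 0.13) and the checkpoint gene Mad2l1 (-0.37, SE 0.18) led that list, and Zwilch followed (-0.35, SE 0.16). Mad2l1 differed by -0.21 without rIL-33 replicate 3. Condensin and cohesin genes had a median of -0.07, with 12 of 18 lower, and the condensin subunit genes Smc2 (-0.27, SE 0.15) and Ncaph (-0.26, SE 0.13) and the cohesin acetyltransferase gene Esco2 (-0.24, SE 0.11) differed most. The list of the anaphase-promoting complex, which holds the inhibitor gene Fbxo5 beside subunits, had a median of -0.04 (10 of 15 lower). Fbxo5 differed by -0.27 (SE 0.18), Anapc5 by 0.18 (SE 0.14) and Anapc13 by 0.16 (SE 0.13). Single arrays moved several of these values. Without PBS replicate 1, Smc2 differed by -0.17 and Fbxo5 by -0.07, and Fbxo5 by -0.17 without rIL-33 replicate 1. Anapc5 was 0.12, 0.10 and 0.09 without PBS replicate 3, PBS replicate 4 and rIL-33 replicate 1, and Anapc13 was 0.06 without PBS replicate 3 and 0.08 without rIL-33 replicate 1.

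In the list of entry phosphatases, Wee1 kinases and the transcription factors of these genes, 14 of 23 were lower, with a median of -0.07. The list also holds genes of other kinds, such as Cks2 and Cks1b. Beside Cks2 stood its paralogue Cks1b at -0.42 (SE 0.12). The NF-Y subunit gene Nfyb differed by 0.33 (SE 0.16), or 0.22 without rIL-33 replicate 1. Foxm1, the transcription factor of late cell cycle genes, named with its value known, differed by -0.28 (SE 0.11). Genes of DNA replication were lower in 27 of 28, with a median of -0.15. The sliding clamp gene Pcna differed by -0.38 (SE 0.13), the helicase subunit gene Mcm6 by -0.30 (SE 0.13) and the thymidylate synthase gene Tyms by -0.29 (SE 0.12), or -0.19 without rIL-33 replicate 3. Of the cyclins and kinases of G1 and S, 13 of 15 were lower (median -0.23), led by the cyclin D1 gene Ccnd1 (-0.33, SE 0.14), E2f1 (-0.31, SE 0.09) and Cdk4 (-0.31, SE 0.11). CDK inhibitors and genes of cell cycle exit were lower in 9 of 11 (median -0.07), with the antiproliferative gene Btg2 at -0.35 (SE 0.12), Gas1 at -0.23 (SE 0.11) and Btg1 at -0.18 (SE 0.09). None of the genes named here passed the adjusted threshold in limma (adjusted p between 0.489 and 0.725).

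Markers of cell types that divide in injured muscle moved with the mitosis genes in part. None of their markers with a value stood at 0. Each sum below is of linear intensities, so the brightest markers weigh most in it. Of 10 macrophage markers 9 were lower (median -0.24; 52% of all genes tested were lower), and their summed intensity was 14792.4 to 17896.1 on the PBS arrays and 11157.2 to 15337.8 on the rIL-33 arrays. All 7 tested T cell markers were lower (median -0.42), with sums over 8 markers of 1763.5 to 3002.3 and 1397.5 to 1929.5. All 7 markers of fibro-adipogenic progenitors were lower (median -0.36), and here the sums did not overlap, 24852.0 to 28545.8 with PBS and 18351.5 to 22466.1 with rIL-33. Of 7 endothelial markers 6 were lower (median -0.11), and the sums, 8393.6 to 9199.9 and 7097.5 to 8363.4, nearly touched. The leading genes were Ms4a7 (-0.60, SE 0.17), Cd3g (-0.88, SE 0.46), Lum (-0.76, SE 0.15) and Eng (-0.33, SE 0.10). Cd3g differed by -0.58 without PBS replicate 1 and by -0.59 without rIL-33 replicate 1. None of the cell type markers passed the adjusted threshold in limma. The part of these cells in the lower mitosis genes was not tested.

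Markers of muscle cells had narrower differences. The sums of linear intensity given here mostly follow the brightest markers of a list and say little of its dimmer ones. Of 8 markers of satellite cells and myoblasts 6 were lower, with a median of -0.05 and sums of 19366.5 to 20730.4 with PBS and 18248.1 to 21308.4 with rIL-33. Of 8 markers of differentiated fibre 1 was lower and 7 higher (median 0.05), with sums of 82961.5 to 95919.2 and 89412.1 to 97816.6. Neutrophil markers were lower in 4 of 4 (median -0.62), with sums over 6 markers of 721.4 to 2422.2 and 713.6 to 815.5, the highest 2 being PBS replicates 3 and 4. The B cell, erythroid and Schwann cell lists had at most 2 tested markers each, with medians of -0.18, -0.02 and 0.00.

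The lists differed on rIL-33 replicate 2, the array on which the mitosis genes lay at the PBS level. Relative to the PBS mean, the median of the mitosis genes there was -0.01 and that of the satellite cell and myoblast markers 0.13. On the same array the medians were -0.31 for fibro-adipogenic progenitors, -0.43 for T cells, -0.15 for macrophages and -0.13 for endothelium. On rIL-33 replicates 1 and 3, the arrays with the lowest mitosis genes, the satellite cell and myoblast markers stood at -0.13 and -0.21 and the progenitor markers at -0.49 and -0.61. On rIL-33 replicate 4, with the mitosis genes at -0.26, the satellite cell and myoblast markers stood at 0.05 and the progenitor markers at -0.22. Macrophage markers stood at -0.39, -0.50 and -0.09 on rIL-33 replicates 1, 3 and 4. T cell markers stood there at -0.66, -0.28 and -0.28 and endothelial markers at -0.17, -0.19 and -0.18. On PBS replicates 1 to 4 the mitosis genes stood at 0.16, -0.17, -0.11 and 0.11. The satellite cell and myoblast markers stood there at 0.22, 0.04, -0.07 and -0.12, and the progenitor markers at 0.02, -0.05, -0.14 and 0.16. Macrophage markers were at 0.08, -0.11, -0.21 and 0.25, T cell markers at 0.33, -0.36, -0.15 and 0.25. Endothelial markers were at 0.07, 0.02, -0.07 and 0.05.

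**Figure D5:**
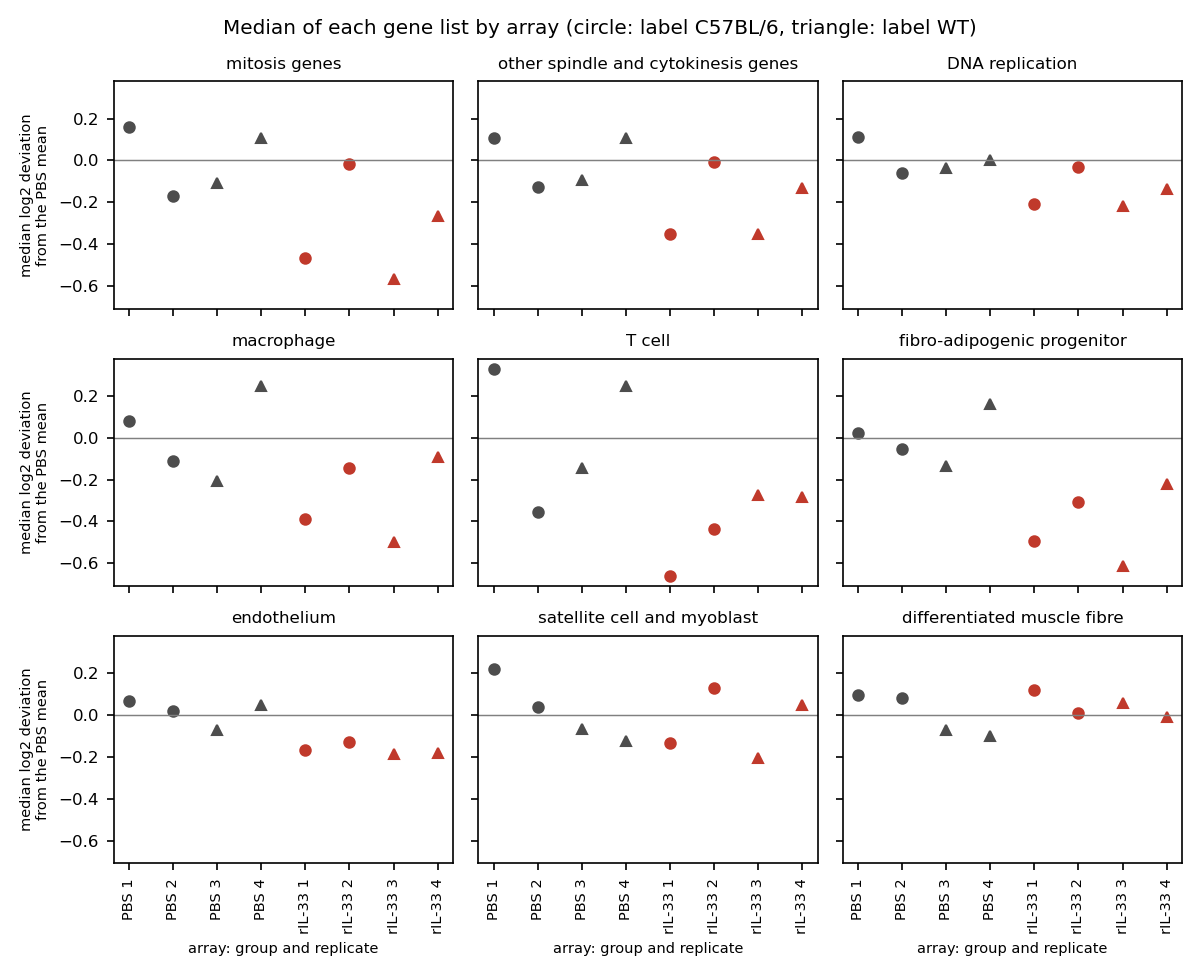
Median over the genes of a list of the log2 intensity minus the PBS mean, by array, for the mitosis genes, 2 other cell cycle lists and 6 lists of cell type markers; circles carry the label C57BL/6 and triangles the label WT. On rIL-33 replicate 2 the mitosis genes lie at -0.01, while the markers of fibro-adipogenic progenitors lie at -0.31.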

How the data were processed

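Whole-muscle RNA was hybridised to Affymetrix Mouse Gene 1.0 ST arrays, 4 per group. The deposited values are linear intensities per probe set; RMA and Affymetrix Power Tools are named in the submitters' processing notes without a version. RMA normalizes arrays to one distribution, so a shift of all genes would not show. They were taken to log2 here. Of 24922 probe sets, 21425 carried 1 gene symbol, 1399 several and 2098 were not listed, and a gene was read from its one-symbol probe set of highest mean. Dim genes, by a limit at the 25th percentile of mean level (log2 6.65), were left out. The groups were compared in limma 3.58.1 (R 4.3.3, lmFit and eBayes, two-sided), with Benjamini-Hochberg adjustment over 14814 genes and a threshold of 0.05, and the script was tested on simulated data. Figures used matplotlib 3.10.9 in Python 3.11.15. Alternatives were quantile normalization, other dim filters, the mean of probe sets, a trended robust eBayes, array weights, the replicate number or label as a block, 1 label alone, and each array left out.

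The members, lists and tests were chosen with earlier results of these data known. All members are accounted for; of each other list the 3 genes of widest difference are eligible to be named, with the 10 genes most like the members' mean, and any other gene is said to be named after its value was seen. Cell type lists are shown by their leading gene only. The number of arrays limits the precision.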

Additional observations from a re-analysis of the deposited data

Results flagged for a closer look

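In a group of 4 arrays, a value was picked out where its gap to the next array took up most of the group's range (Dixon's test), which chance meets in about 1 in 20 groups. Both groups of the 31 mitosis genes were checked, so a few such values would be met by chance, and the number found was not above that. Birc5 (survivin) met it in the rIL-33 group, at 7.30, 7.78, 7.30 and 7.32 on replicates 1 to 4, since replicate 2 took up 0.964 of the range as a gap. Mki67 (Ki-67) met it in the PBS group, at 9.48, 9.09, 9.51 and 9.55, with a gap of 0.843 below the others for replicate 2. rIL-33 replicate 2 was the highest rIL-33 array in 29 of the 31 genes (20.3% of all genes tested). PBS replicate 2 was the PBS array with the lowest median of the members (-0.17 from the PBS mean).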

How the results depend on the processing

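No mitosis gene passed the adjusted threshold in limma under any of 18 alternative settings (smallest adjusted p 0.265), and with 4 arrays a group the precision is limited. The block fits, the trended eBayes, the other dim filters and the mean of probe sets leave a member's difference as it was. Its direction could not change there, so those values show nothing about robustness. The direction could change with quantile normalization, array weights, 1 label alone or 1 array left out. It did so in 6 single-gene values. They were Aurka within the WT label (0.036), Cenpe within the C57BL/6 label (0.019), and the rest were of Ndc80. Ndc80 changed with array weights (0.050), within C57BL/6 (0.14), and without PBS replicate 3 or rIL-33 replicate 3. Leaving out 1 array gave -0.082 to 0.033 for Ndc80. The cause was not tested. All 17 members tested under a dim filter at the 50th percentile were lower, where fewer genes are tested and their differences are unchanged. The median difference was -0.22 with array weights and -0.34 without. Over all genes, the count past the threshold was 1, and 2 within C57BL/6, 4 within WT, 0 with the replicate block and 1 to 2 when 1 array was left out.

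With the replicate number as a block, 18 of the 29 members were lower at an unadjusted limma p under 0.05 (8.23% of all genes). Without the block 19 were (5.24%). Counted in either direction, 2327 of all genes had such a p with the block and 1427 without it. The numbers are not shown to pair the samples, since deviations of same-numbered arrays correlated at 0.44, -0.19, 0.43 and 0.54, and rIL-33 replicate 1 was closer to PBS replicate 2 (0.63). The correlation between members has no value of its own under array weights or the trended eBayes.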
